A study of Homo sapiens with 15 samples.

Results

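The 10 genes described here time the passage of a cell through G1 and were followed in K562 cells: the D-type cyclins CCND1, CCND2 and CCND3, the kinases CDK4 and CDK6, the inhibitors CDKN1B, CDKN1C, CDKN2C and CDKN2D, and RB1. They were chosen by symbol, and all 10 were found among the 60649 genes of the deposited count table. All 10 also passed the filter on low counts, which kept 23711 genes. K562 is an established human cell line from chronic myeloid leukaemia with the BCR-ABL fusion gene. Cells received no drug or 24 h of martinostat, which inhibits histone deacetylases (HDACs), at 0.15 µM, 0.25 µM, 0.5 µM or 1 µM. Poly(A) RNA was sequenced from 3 biological replicates of each of the 5 groups, 15 libraries in all. All groups are the same cell line grown in the same medium, so they speak for 1 line only, and what the untreated cells received in place of the inhibitor is not given in the sources used here.

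In G1, D-type cyclins pair with CDK4 or CDK6, and the active kinases phosphorylate the retinoblastoma protein, the product of RB1, which otherwise holds back the E2F factors that switch on genes for DNA replication. Inhibitors of the INK4 family, here CDKN2C (p18) and CDKN2D (p19), bind CDK4 and CDK6 themselves and keep cyclins off. Inhibitors of the Cip/Kip family, here CDKN1B (p27) and CDKN1C (p57), bind complexes of cyclin and kinase and act above all on CDK2. HDAC inhibitors raise the acetylation of histones and are known to slow the cell cycle of leukaemia cells.

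Library totals ran from 23755510 to 32805574 counts. The scaling factors were lower in untreated cells (0.784 to 0.828) than in treated cells (0.950 to 1.28), which bears on small changes as set out below. Replicate 3 at 0.25 µM (48.7) and at 0.5 µM (52.1) stood apart on the third principal component. The other libraries lay there between -25.9 and 9.52. Values without this pair are therefore also given for CCND1, CCND2, CCND3, CDKN1C, CDKN2C and CDKN2D, and not for the other genes. To a lesser degree replicate 3 at 0.15 µM differed from its group (chi-square over its degrees of freedom 35.2 and 40.2, against 11.4 between replicates 1 and 2). So did replicate 2 at 1 µM (38.7 and 45.3, against 6.51 between replicates 1 and 3). Of 8 markers of K562 cells, all were between 109 and 648 CPM in untreated libraries, where CPM is the count scaled to a fixed library size. Their summed level ran from 2520 to 2600 CPM in untreated libraries, 1890 to 2010 CPM at 0.15 µM, 1090 to 1510 CPM at 0.25 µM, 787 to 1180 CPM at 0.5 µM and 1120 to 1170 CPM at 1 µM. The lowest levels of GATA1 (14.2 CPM) and KLF1 (2.07 CPM), genes of red cell development, were in treated libraries. The 5 markers of other blood cells summed to 2.86 to 5.68 CPM in untreated libraries and to between 6.44 and 13.3 CPM in treated ones, with MPO at 0 counts in untreated libraries and at most 1.15 CPM elsewhere. The part of these shifts in the results that follow was not tested.

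The 10 genes split into a small group that rose and a larger group that fell (the plot of levels by dose). At 1 µM, CDKN1C and CDKN2D were higher than in untreated cells, RB1 did not pass the test, and the other 7 genes were lower. At 0.15 µM, CCND1, CCND2, CDKN1C and CDKN2D were higher, and CDK4, CDK6 and CDKN1B lower. A gene counted as called when edgeR's quasi-likelihood F test, adjusted over all genes by the Benjamini-Hochberg method, gave a p under 0.05. Since bulk RNA was sequenced, fewer cells with a transcript and less of it per cell cannot be told apart.

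**Figure D1:**
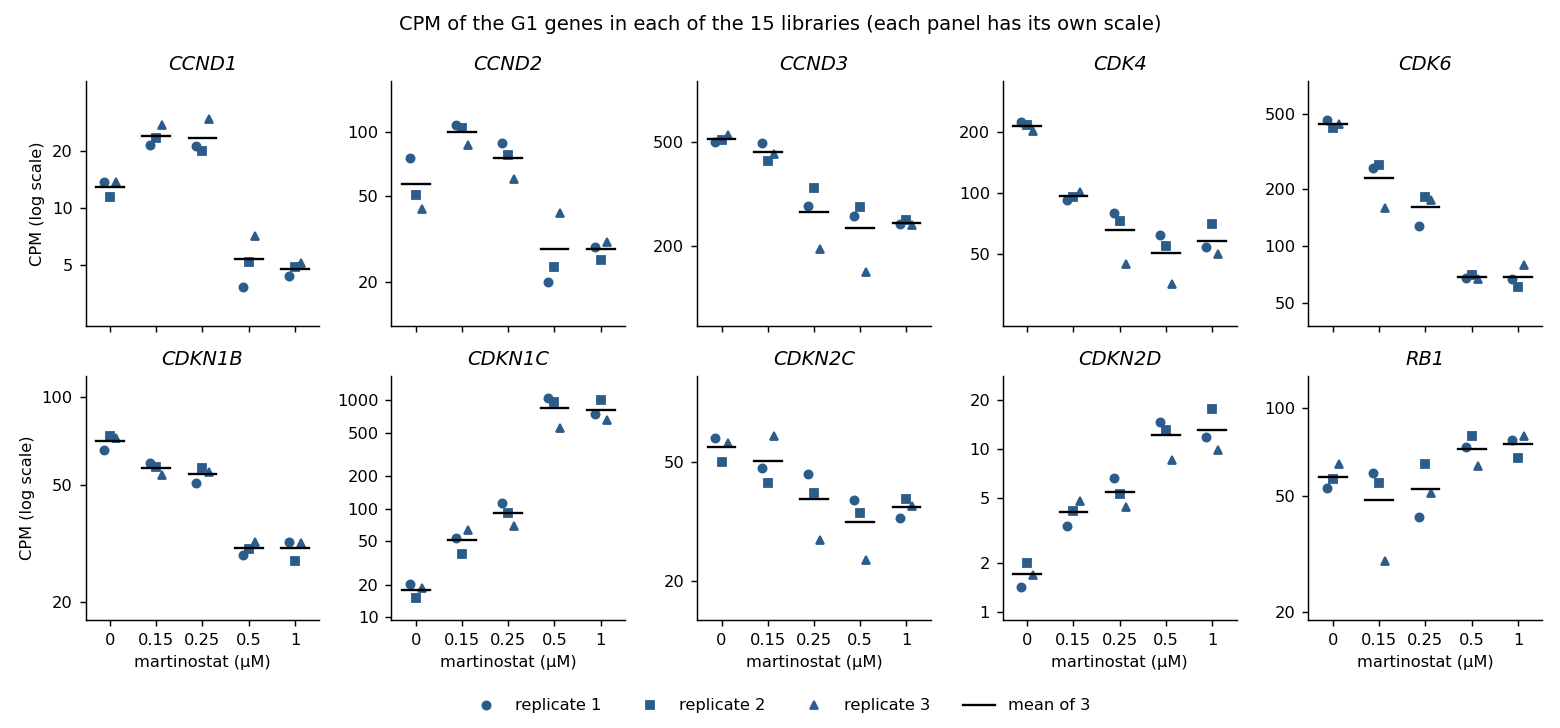
CPM of each gene in each of the 15 libraries (vertical axis, log scale, its own range in each panel) against the dose of martinostat in µM (horizontal axis). Points are single libraries, with the marker shape giving the replicate number, and bars are means of 3 libraries. The 6 libraries at 0.5 and 1 µM lie between 553 and 1051 CPM for CDKN1C, far above the untreated 15.0 to 20.4 CPM, and for CDK6 between 60.4 and 78.8 CPM, far below the untreated 420 to 465 CPM.

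Many genes of the genome moved as well, so each count is set beside the share of all 23711 tested genes called in the same direction. At 0.15 µM, 4 of the 10 were higher (31.9% of all genes) and 3 lower (19.4% of all genes). At 0.25 µM, 3 were higher (37.4%) and 5 lower (24.8%). At 0.5 µM the counts were 2 higher (39.4%) and 7 lower (27.6%), and at 1 µM again 2 higher (38.8%) and 7 lower (27.5%). The median log2 fold change of the 10 genes was -0.16, -0.26, -1.06 and -1.03 in order of rising dose, against 0.28, 0.32, 0.34 and 0.32 over all genes tested. All 10 differed among the 5 groups in edgeR's test, as did 73.6% of all genes, with adjusted p-values from 1.08e-11 for CDKN1C to 0.0298 for RB1. The call of RB1 in this test was lost without 0.5 µM replicate 2, 1 µM replicate 1 or 1 µM replicate 3 (adjusted p = 0.059, 0.0677 and 0.0716), and that of CDKN2C with TMM factors from genes above 10 CPM (adjusted p = 0.0585). The scaling set the balance of calls over all genes. Of 12148 genes called at 0.15 µM 7557 were higher, against 9582 of 11700 when libraries were scaled by their totals, and at 0.25 µM the counts were 8873 of 14761 and 11697 of 14764. At 0.5 µM they were 9336 of 15872 and 11097 of 15810, and at 1 µM 9193 of 15707 and 10808 of 15585. The 4 comparisons with untreated cells share the same 3 untreated libraries.

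**Figure D2:**
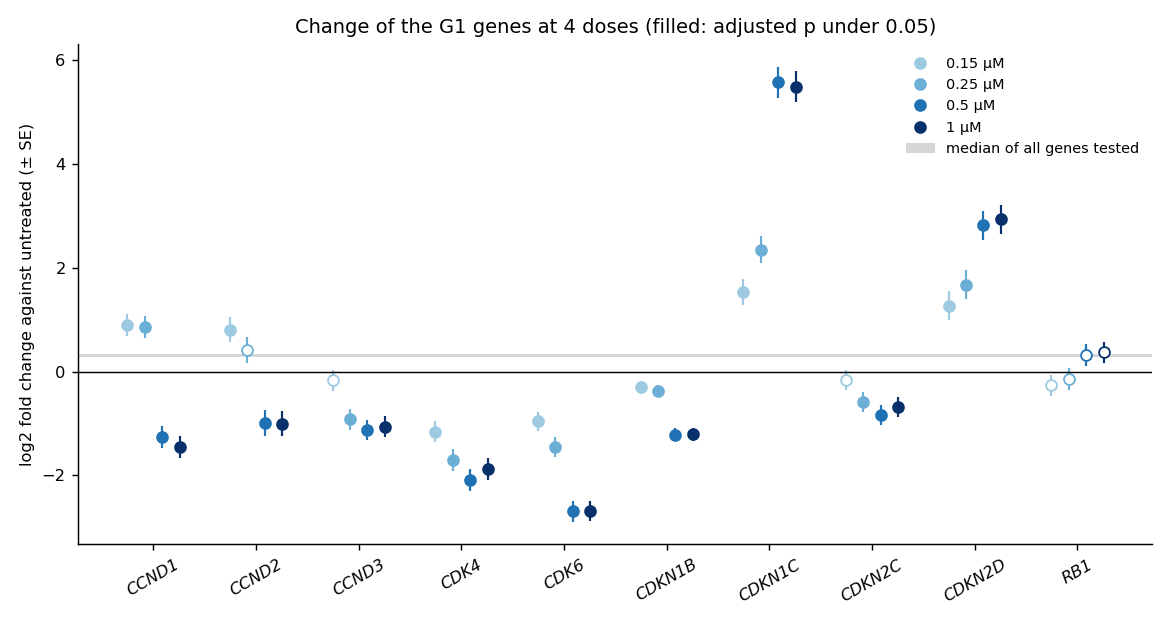
Log2 fold change against untreated cells with its standard error (vertical axis) for each of the 10 genes at 4 doses (darker points for higher doses). Filled points passed edgeR's test at an adjusted p under 0.05, open points did not, and the grey band spans the medians of all genes tested (0.28 to 0.34). CCND1 and CCND2 lie above 0 at 0.15 µM and below it at 0.5 and 1 µM.

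Among the D-type cyclins, CCND1 and CCND2 were above untreated cells at the lowest dose and below them at the highest doses, while CCND3 was called only as lower. CCND1 encodes cyclin D1 and lies at chr11:69641156-69654474 on the plus strand of hg38. In replicates 1, 2 and 3, untreated cells had 13.8, 11.5 and 13.7 CPM, cells at 0.15 µM 21.6, 23.5 and 27.7 CPM, and cells at 0.25 µM 21.3, 20.1 and 29.6 CPM. At 0.5 µM it stood at 3.80, 5.19 and 7.12 CPM, and at 1 µM at 4.33, 4.84 and 5.09 CPM. Every library at the lower doses lay above every untreated library, and every library at the higher doses below. On the log2 scale CCND1 changed by 0.90 ± 0.21 (standard error, as for all changes below; adjusted p = 0.00137) at 0.15 µM and 0.86 ± 0.21 (adjusted p = 0.00139) at 0.25 µM. It was -1.26 ± 0.22 (adjusted p = 4.11e-05) at 0.5 µM and -1.45 ± 0.22 (adjusted p = 9.17e-06) at 1 µM. Without replicate 3 of both doses, the values at 0.25 and 0.5 µM were 0.69 and -1.50. Of the exon bases of CCND1, 10.44% lie under LTO1 on the opposite strand.

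CCND2, which encodes cyclin D2 (chr12:4269771-4305353, plus strand), took the same course with more spread. It stood at 75.9, 50.8 and 43.9 CPM in untreated cells and at 108.0, 104.0 and 86.9 CPM at 0.15 µM. The levels were 88.5, 78.1 and 60.6 CPM at 0.25 µM, 19.96, 23.4 and 42.0 CPM at 0.5 µM, and 29.2, 25.3 and 30.6 CPM at 1 µM. The untreated libraries overlapped with those at 0.25 µM and with no other dose. The change was 0.81 ± 0.25 (adjusted p = 0.0108) at 0.15 µM, 0.41 ± 0.24 (adjusted p = 0.152) at 0.25 µM, -0.99 ± 0.25 (adjusted p = 0.00193) at 0.5 µM and -1.003 ± 0.25 (adjusted p = 0.0018) at 1 µM. Some of these calls changed with single libraries or with the processing. Without untreated replicate 3 the value at 0.15 µM was 0.65 (adjusted p = 0.0579), and without untreated replicate 1 the value at 0.25 µM was 0.67 (adjusted p = 0.0311). Leaving out 0.5 µM replicate 3 also brought the call at 0.25 µM (0.41, adjusted p = 0.0472), as did leaving out replicate 3 at both 0.25 and 0.5 µM (0.57, adjusted p = 0.00506). In all, 8 of 26 alternatives called CCND2 higher at 0.25 µM, among them library totals, TMM from genes above 10 CPM, a stricter filter and both limma fits (0.60 to 0.92, adjusted p from 0.012 to 0.0325). The limma fits use FPKM, which are scaled by library totals too, so these alternatives are not independent. Of the exon bases of CCND2, 12.51% lie under another gene on the same strand, which counting by strand cannot tell apart. A further 3.36% lie under genes on the opposite strand.

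CCND3 encodes cyclin D3, a D-type cyclin much used by blood cells, and lies at chr6:41934934-42050357 on the minus strand. It was at 500.3, 506 and 531 CPM in untreated cells, 493, 423 and 450 CPM with 0.15 µM and 285, 332 and 196 CPM at 0.25 µM. At 0.5 µM it was at 261, 283 and 160 CPM and at 1 µM at 244, 251 and 240 CPM. With TMM scaling all treated libraries lay below all untreated libraries, narrowly so at 0.15 µM. On library totals the libraries at 0.15 µM lay above the untreated ones instead (change 0.19). The libraries of replicate 3 at 0.25 and 0.5 µM were the lowest of their groups. The change was -0.17 ± 0.20 (adjusted p = 0.496) at 0.15 µM, -0.92 ± 0.20 (adjusted p = 0.000557) at 0.25 µM, -1.13 ± 0.20 (adjusted p = 6.52e-05) at 0.5 µM and -1.07 ± 0.20 (adjusted p = 0.000117) at 1 µM. Without replicate 3 of both doses it was -0.71 at 0.25 µM and -0.88 at 0.5 µM.

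Both kinases fell at every dose. CDK4 (chr12:57747727-57756013, minus strand) was at 224, 218 and 203 CPM in untreated cells and already at 92.6, 95.5 and 101 CPM at 0.15 µM. It was at 79.9, 72.7 and 44.5 CPM at 0.25 µM, 61.9, 54.5 and 35.4 CPM at 0.5 µM and 54.3, 70.2 and 50.1 CPM at 1 µM. No treated library reached an untreated one. The libraries of replicate 3 at 0.25 and 0.5 µM were the lowest of their groups. The calls at these 2 doses held in all 26 alternatives, the fit without both of these libraries among them. The change was -1.16 ± 0.21 (adjusted p = 0.000144) at 0.15 µM, -1.71 ± 0.21 (adjusted p = 1.31e-06) at 0.25 µM, -2.09 ± 0.22 (adjusted p = 8.17e-08) at 0.5 µM and -1.89 ± 0.21 (adjusted p = 2.92e-07) at 1 µM. Exons of TSPAN31 on the opposite strand cover 44.25% of the exon bases of CDK4. The library kit kept the strand, but the strand setting of the counting is not stated, so fragments of these 2 genes may not have been told apart there.

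CDK6, the partner of D-type cyclins that is the most used in many blood cells, lies at chr7:92604921-92836573 on the minus strand. It stood at 465, 420 and 439 CPM in untreated cells, 259, 266 and 158 CPM with 0.15 µM and 127, 181 and 174 CPM at 0.25 µM. The levels were 67.4, 69.6 and 67.0 CPM at 0.5 µM and 66.7, 60.4 and 78.8 CPM at 1 µM. At each dose all 3 libraries lay below the untreated ones, and those at 0.5 and 1 µM lay below all libraries at the lower doses. The change was -0.96 ± 0.18 (adjusted p = 0.000262), -1.46 ± 0.19 (adjusted p = 1.81e-06), -2.70 ± 0.19 (adjusted p = 5.81e-10) and -2.68 ± 0.19 (adjusted p = 6.16e-10) from 0.15 to 1 µM, the largest fall among the 10 genes at 0.5 and 1 µM.

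The 2 Cip/Kip inhibitors moved apart. CDKN1C (chr11:2883213-2885775, minus strand) encodes p57 and is an imprinted gene. From 20.4, 15.0 and 18.6 CPM without drug it rose to 54.2, 38.5 and 63.3 CPM at 0.15 µM and 114, 91.6 and 69.3 CPM at 0.25 µM. At 0.5 µM it stood at 1051, 963 and 553 CPM, and at 1 µM at 751, 1015 and 657 CPM. No treated library overlapped with an untreated one, and all 6 libraries at the higher doses lay above all 6 at the lower doses. The change was 1.53 ± 0.26 (adjusted p = 8.47e-05) at 0.15 µM, 2.35 ± 0.26 (adjusted p = 5.48e-07) at 0.25 µM, 5.57 ± 0.30 (adjusted p = 2.94e-11) at 0.5 µM and 5.49 ± 0.30 (adjusted p = 3.36e-11) at 1 µM. The libraries of replicate 3 at 0.25 and 0.5 µM were the lowest of their groups, and without them the values were 2.54 and 5.85.

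CDKN1B (chr12:12685498-12722369, plus strand) encodes p27, which is known to be set mainly by how fast the protein is broken down. Its transcript was at 65.9, 73.9 and 72.3 CPM in untreated cells, 59.7, 57.8 and 54.0 CPM with 0.15 µM and 50.9, 57.4 and 55.5 CPM at 0.25 µM. It was at 28.8, 30.4 and 32.1 CPM at 0.5 µM and at 32.1, 27.7 and 31.9 CPM at 1 µM. With TMM scaling the untreated libraries lay above all treated ones, and the 6 libraries at the higher doses below all others. On library totals the untreated libraries overlapped with those at 0.15 and 0.25 µM. At 0.5 and 1 µM the change was -1.21 ± 0.12 in both (adjusted p = 5.82e-08 and 6e-08). The smaller changes of -0.31 ± 0.12 (adjusted p = 0.0406) at 0.15 µM and -0.37 ± 0.12 (adjusted p = 0.0116) at 0.25 µM were less secure. The call at 0.15 µM was lost when any of 10 single libraries was left out (adjusted p up to 0.134, without untreated replicate 2) and with a replicate block (-0.30, adjusted p = 0.0535). Both small changes turned positive under other scalings, as described with the plot of scalings.

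The INK4 inhibitors parted in the same way. CDKN2D (chr19:10566460-10569059, minus strand) rose from a low level of 1.43, 2.01 and 1.68 CPM in untreated cells, where a library held as few as 35 counts. It was at 3.37, 4.20 and 4.82 CPM at 0.15 µM, 6.64, 5.33 and 4.41 CPM at 0.25 µM, 14.7, 13.1 and 8.54 CPM at 0.5 µM and 11.9, 17.5 and 9.87 CPM at 1 µM. All treated libraries lay above all untreated ones. The change was 1.27 ± 0.28 (adjusted p = 0.000916), 1.67 ± 0.28 (adjusted p = 4.16e-05), 2.82 ± 0.28 (adjusted p = 5.43e-08) and 2.93 ± 0.28 (adjusted p = 3.22e-08) from 0.15 to 1 µM. Without replicate 3 of both doses the values at 0.25 and 0.5 µM were 1.83 and 3.06.

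CDKN2C (chr1:50960745-50974634, plus strand) was at 60.6, 50.3 and 58.4 CPM in untreated cells and at 48.1, 42.7 and 61.2 CPM at 0.15 µM. It was at 45.9, 39.6 and 27.5 CPM at 0.25 µM, 37.4, 33.8 and 23.5 CPM at 0.5 µM and 32.5, 37.7 and 35.7 CPM at 1 µM. The untreated libraries overlapped with those at 0.15 µM and lay above all libraries from 0.25 µM upwards. The change was -0.16 ± 0.19 (adjusted p = 0.529) at 0.15 µM, -0.58 ± 0.19 (adjusted p = 0.014) at 0.25 µM, -0.84 ± 0.20 (adjusted p = 0.000943) at 0.5 µM and -0.68 ± 0.20 (adjusted p = 0.00506) at 1 µM. The call at 0.25 µM was lost without 0.25 µM replicate 3 (-0.38, adjusted p = 0.096), and without replicate 3 of both doses the values at 0.25 and 0.5 µM were -0.38 and -0.62. Another gene on the opposite strand covers 20.44% of the exon bases of CDKN2C, with the same reservation as for CDK4.

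RB1 (chr13:48303744-48599436, plus strand) was the only one of the 10 genes called at no dose against untreated cells. It was at 53.1, 57.0 and 63.9 CPM in untreated cells, 59.6, 55.0 and 29.9 CPM with 0.15 µM and 42.3, 64.1 and 51.2 CPM at 0.25 µM. At 0.5 µM it was at 73.5, 80.2 and 63.3 CPM and at 1 µM at 77.8, 67.5 and 79.8 CPM. The untreated libraries overlapped with those at 0.15, 0.25 and 0.5 µM and lay below all 3 at 1 µM. The change was -0.27 ± 0.21 (adjusted p = 0.291), -0.14 ± 0.21 (adjusted p = 0.561), 0.32 ± 0.21 (adjusted p = 0.18) and 0.37 ± 0.21 (adjusted p = 0.119) from 0.15 to 1 µM. Replicate 3 at 0.15 µM was the lowest library, and without it the values at 0.5 and 1 µM were 0.36 (adjusted p = 0.0369) and 0.41 (adjusted p = 0.021). Of 26 and 25 alternatives at these doses, 7 each called RB1 higher, the fit of only the libraries compared among them (0.38 and 0.43, adjusted p = 0.0238 and 0.000977).

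Promoter sequences of genes that rose and fell are shown side by side, since the members changed in opposite directions. Windows of 250 bases before an annotated start were found in RefSeq (GRCh38.p14) for 7 of the 10 genes, 12 windows in all, with no entry used for CCND1, CCND2 and CDKN1C. The GC box, spelled GGGCGG, was searched on both strands with overlapping matches counted apart. It was in 8 of the 12 windows, against 42.6% of all 35116 windows. By gene, at least 1 window held it in 6 of the 7 genes (not RB1), for which no share over all genes was computed. The windows of RB1, CDKN1B, CDK4, CCND3 and CDKN2D and some of those of CDK6 and CDKN2C lie before starts inside the gene. The letters TATAAA were in 0 of the 12 windows, against 10.7% of all windows. Below, the bases of the windows that lie outside every annotated exon are given 5′ to 3′ on the strand of the gene for CDKN2D, which rose, and for CDK6 and CDKN1B, which fell, with GC boxes of either strand in capitals. They lie at chr19:10569060-10569229 (minus strand), chr7:92836574-92836823 (minus strand) and chr12:12717118-12717367 (plus strand).
CDKN2D: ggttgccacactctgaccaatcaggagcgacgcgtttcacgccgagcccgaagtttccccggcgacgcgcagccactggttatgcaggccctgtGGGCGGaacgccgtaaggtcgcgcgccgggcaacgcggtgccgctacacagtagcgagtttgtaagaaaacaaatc
CDK6: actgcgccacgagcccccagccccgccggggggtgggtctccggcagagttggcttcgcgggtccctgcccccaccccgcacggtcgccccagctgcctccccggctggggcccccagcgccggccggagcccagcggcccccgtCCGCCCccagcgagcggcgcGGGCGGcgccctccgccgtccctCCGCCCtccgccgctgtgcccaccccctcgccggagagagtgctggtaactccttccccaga
CDKN1B: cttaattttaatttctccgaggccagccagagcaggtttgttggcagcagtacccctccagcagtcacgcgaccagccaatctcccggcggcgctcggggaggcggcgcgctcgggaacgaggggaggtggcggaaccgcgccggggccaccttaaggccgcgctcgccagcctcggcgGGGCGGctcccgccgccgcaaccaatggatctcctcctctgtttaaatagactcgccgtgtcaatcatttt
The whole windows held 67.6% (CDKN2D), 80.0% (CDK6) and 64.4% (CDKN1B) G or C, against a median of 58.0% over all windows. They held 2, 3 and 1 GC boxes, and the bases shown, outside every annotated exon, held 1, 3 and 1. The gene that rose and the 2 that fell thus all had at least 1. A match of letters is a description and says nothing of binding.

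To ask where along the doses the changes took place, neighbouring doses were compared. From 0.15 to 0.25 µM only CDKN1C was higher (0.82 ± 0.25, adjusted p = 0.0413) and only CCND3 lower (-0.75 ± 0.20, adjusted p = 0.019), 1 of 10 genes each, with 4.96% of all genes higher and 7.32% lower. Neither call was firm. That of CCND3 was lost without 0.15 µM replicate 1 (-0.69, adjusted p = 0.0706), without 0.25 µM replicate 3 (-0.54, adjusted p = 0.0793) and when only the libraries compared were fitted (-0.70, adjusted p = 0.05). That of CDKN1C was lost in 7 of 15 fits that left out a library, with the highest adjusted p (0.169, change 0.63) without 0.15 µM replicate 2.

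Among the steps between treated doses, that from 0.25 to 0.5 µM had the most calls, 6 of the 10 genes, where 0.15 µM against untreated cells had 7. CDKN1C (3.22 ± 0.27, adjusted p = 9.14e-08) and CDKN2D (1.15 ± 0.26, adjusted p = 0.00203) were higher, 2 of 10 genes against 14.4% of all genes. CCND1 (-2.13 ± 0.22, adjusted p = 5.94e-07), CCND2 (-1.41 ± 0.25, adjusted p = 0.000345), CDK6 (-1.24 ± 0.19, adjusted p = 4.66e-05) and CDKN1B (-0.84 ± 0.12, adjusted p = 3.19e-05) were lower, 4 of 10 against 16.0% of all genes. These 6 calls held in all 27 alternatives tried for each. Same-numbered libraries of these 2 groups deviated together, and a fit of the 6 libraries with a replicate block added CDK4 (-0.38, adjusted p = 0.00499) and RB1 (0.46, adjusted p = 0.00394) to the genes called. CCND3, CDK4, CDKN2C and RB1 were not called in the fit of all libraries (adjusted p = 0.471, 0.189, 0.356 and 0.0995).

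Between 0.5 and 1 µM none of the 10 genes was called, and neither was any other gene in edgeR's test or in DESeq2, while limma on FPKM called 1 gene, not among the 10. At an unadjusted p under 0.05 there were 372 of all 23711 genes and 0 of the 10. The log2 differences of the 10 genes ran from -0.19 for CCND1 to 0.20 for CDK4.

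Across the whole range, from 0.15 to 1 µM, all 10 genes were called, 3 higher (21.5% of all genes) and 7 lower (23.1% of all genes). CDKN1C was higher by 3.96 ± 0.28 (adjusted p = 4.07e-09), CDKN2D by 1.66 ± 0.26 (adjusted p = 4.23e-05) and RB1 by 0.64 ± 0.21 (adjusted p = 0.0167). The largest falls were those of CCND1 (-2.35 ± 0.22, adjusted p = 7.98e-08), CCND2 (-1.81 ± 0.25, adjusted p = 1.62e-05) and CDK6 (-1.73 ± 0.19, adjusted p = 5.37e-07). CDKN1B (-0.90 ± 0.12), CCND3 (-0.89 ± 0.20), CDK4 (-0.73 ± 0.21) and CDKN2C (-0.52 ± 0.19, adjusted p = 0.0365) followed. The call of CDKN2C was lost without any of 5 single libraries (highest adjusted p 0.226, change -0.32, without 0.15 µM replicate 3) and in 4 other settings, DESeq2 (-0.41, adjusted p = 0.101) among them. That of RB1 was lost without 1 µM replicate 1 (0.61, adjusted p = 0.0513) or replicate 3 (0.59, adjusted p = 0.0568).

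Ratios of related genes within a library do not depend on how libraries are scaled. The ratio of CDKN1C to CDKN1B counts had a mean log2 of -1.99 ± 0.30 (SD, n = 3) in untreated libraries and rose by 1.82, 2.70, 6.74 and 6.69 in order of dose, the last of which is a 103-fold change. The ratio of CDKN2D to CDKN2C had a mean log2 of -5.04 ± 0.38 (SD, n = 3) in untreated libraries and rose by 1.43, 2.27, 3.65 and 3.57, which is 11.9-fold at 1 µM. In both pairs every treated library lay above every untreated one. Over the 12 treated against the 3 untreated libraries, the rise was 4.49 and 2.73 on the log2 scale, with a two-sided exact permutation p of 0.0044 each, the smallest these libraries can give, and 0.011 after adjustment over the 5 ratios. Complete separation fixes this p, so it adds nothing to the separation. The 12 treated libraries also pool doses at which the ratios differed.

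The other 3 ratios did not pass that test (adjusted p from 0.278 to 0.541). CDK6 to CDK4 changed by -0.23 over all doses (exact permutation p = 0.541), with 0.16 and 0.28 at the 2 lower doses and -0.57 and -0.79 at the 2 higher ones. CCND1 to CCND3 changed by 0.58 (exact permutation p = 0.338), but by 1.07 and 1.80 at 0.15 and 0.25 µM and by -0.15 and -0.38 at 0.5 and 1 µM. CCND2 to CCND3 changed by 0.66 (exact permutation p = 0.167), with 1.02 and 1.39 at the lower doses and 0.13 and 0.10 at the higher ones. At 0.15 and 0.25 µM all 6 libraries lay above the untreated ones in both cyclin ratios. For CDK6 to CDK4 every library at 0.5 and 1 µM lay below the untreated ones. The same held for CCND1 to CCND3 at 1 µM. With 3 libraries against 3, each of these separations gives an exact permutation p of 0.1 per dose, the smallest possible. After adjustment it is 0.133.

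**Figure D3:**
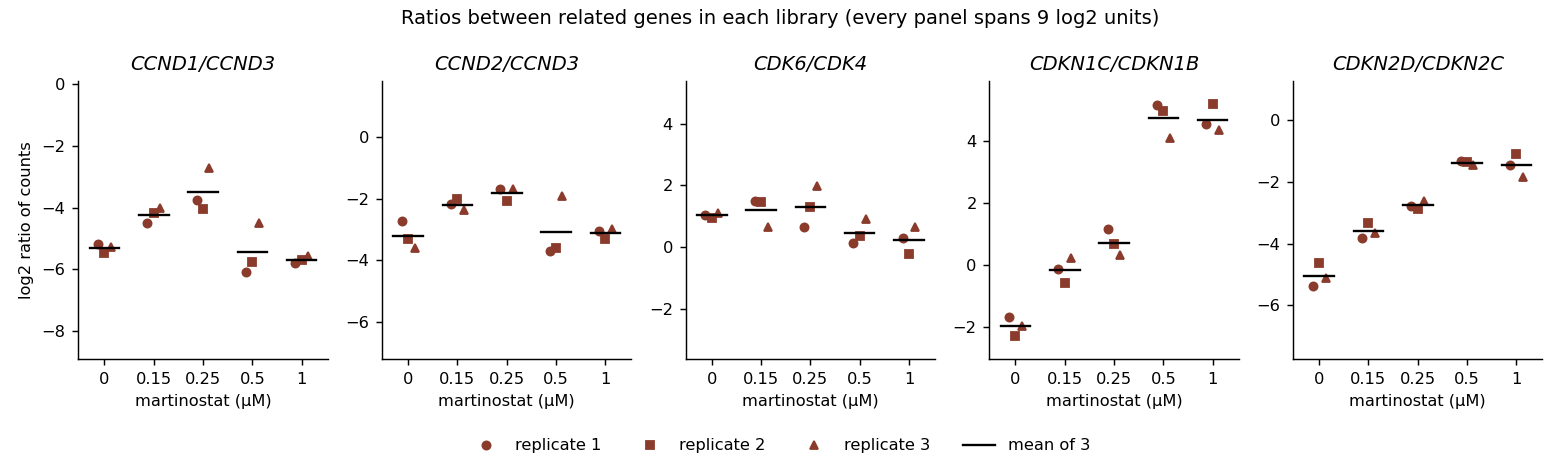
Log2 ratio of the counts of 2 related genes in each library (vertical axis, every panel spanning 9 log2 units) against the dose of martinostat in µM (horizontal axis). Points are single libraries with the marker shape giving the replicate number, and bars are means of 3. The mean of CDKN1C to CDKN1B climbs from -1.99 in untreated libraries to 4.76 at 0.5 µM. That of CDK6 to CDK4 lies between 0.25 and 1.32 in all groups, and its libraries at 0.5 and 1 µM lie below the untreated ones.

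Levels of different genes were compared per kilobase of exon not covered by another gene (CPM per kb). In untreated cells the order was CDK4 (125 ± 6.21, SD, n = 3), CCND3 (89.3), CDK6 (36.3) and CDKN2C (23.5), followed by RB1 (9.02), CCND2 (8.26), CDKN1B (7.64) and CDKN1C (7.25), whose neighbours overlapped, and by CCND1 (3.05) and CDKN2D (1.14). At 1 µM CDKN1C led with 326 CPM per kb, ahead of CCND3 (42.7), CDK4 (33.7), CDKN2C (14.7) and RB1 (11.7). CDKN2D (8.69), whose libraries overlapped with those of RB1, stood above CDK6 (5.65), CCND2 (4.12), CDKN1B (3.30) and CCND1 (1.11). The lengths join all annotated exons of a gene, whether or not these cells use them, so the order between genes depends on the annotation. These lengths leave out exon bases under genes of either strand. If the counting kept the strand, only overlaps on the same strand would leave the length, and untreated CDK4 would stand at 69.5 ± 3.46 CPM per kb, below CCND3 (89.0). The first place in untreated cells thus cannot be settled without the strand setting. In that reading CDK4 at 1 µM would be at 18.8 and CDKN2C at 11.7 CPM per kb, the latter overlapping with RB1.

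Taken as families, the same scale gave these sums. The D-type cyclins summed to 101 ± 2.05 CPM per kb (SD, n = 3) in untreated cells, 99.6, 63.8, 46.3 and 47.9 from 0.15 to 1 µM, and CCND3 made up 88.8% of the sum in untreated cells, 73.4% at 0.25 µM and 89.1% at 1 µM. CDK4 and CDK6 together summed to 161 ± 7.17 CPM per kb in untreated cells and to 74.6, 51.3, 34.9 and 39.4 from 0.15 to 1 µM, or, if the counting kept the strand, to 106 ± 4.5 and then 49.8, 34.4, 21.9 and 24.4. CDKN1C was 48.5% of the sum of the 2 Cip/Kip genes in untreated cells, 76.6% at 0.15 µM and 98.9% at 1 µM. These shares rest on lengths of 9255 bases for CDKN1B and 2480 bases for CDKN1C. Before division by length, untreated cells had a mean of 70.7 CPM for CDKN1B and 18.0 CPM for CDKN1C. CDKN2D grew from 4.67% to 36.6% of the sum of the 2 INK4 genes, while that sum was 24.6 ± 2.06 CPM per kb in untreated cells and 23.4 ± 3.38 at 1 µM (19.8 and 20.4 if the counting kept the strand).

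How libraries were scaled moved the small changes across 0. With library totals in place of the trimmed mean of M values (TMM), the median change of all genes rose from 0.28 to 0.64 at 0.15 µM, from 0.32 to 0.84 at 0.25 µM, from 0.34 to 0.72 at 0.5 µM and from 0.32 to 0.67 at 1 µM. The changes of CCND3, CDKN1B, CDKN2C and RB1 at 0.15 µM then read 0.19, 0.06, 0.20 and 0.10, and those of CDKN1B and RB1 at 0.25 µM read 0.16 and 0.38, all with the opposite sign. Each of these was below the median of all genes under both scalings. A change of scaling shifts all genes of a comparison alike, so it could not have altered this. Separations between libraries in CPM are given above for TMM, and some changed on library totals, as stated for CCND3 and CDKN1B. Untreated libraries of CCND2 then overlapped with those at 0.5 µM and no longer with those at 0.25 µM. For CDKN2C they overlapped also with those at 0.25 µM, and for RB1 they lay below all libraries at 0.5 µM. CCND2 at 0.5 and 1 µM (-0.56 and -0.66, adjusted p = 0.107 and 0.0644) and CDKN2C at 0.25 and 1 µM (-0.08 and -0.33, adjusted p = 0.684 and 0.0846) were no longer called on library totals, and RB1 was called higher at 0.5 and 1 µM (0.69 and 0.73, adjusted p = 0.00848 and 0.00591), as was CCND2 at 0.25 µM (0.92, adjusted p = 0.0142). CDK4, CDK6, CDKN1C, CDKN2D and CCND1 kept their direction and their call against untreated cells under all 4 scalings.

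**Figure D4:**
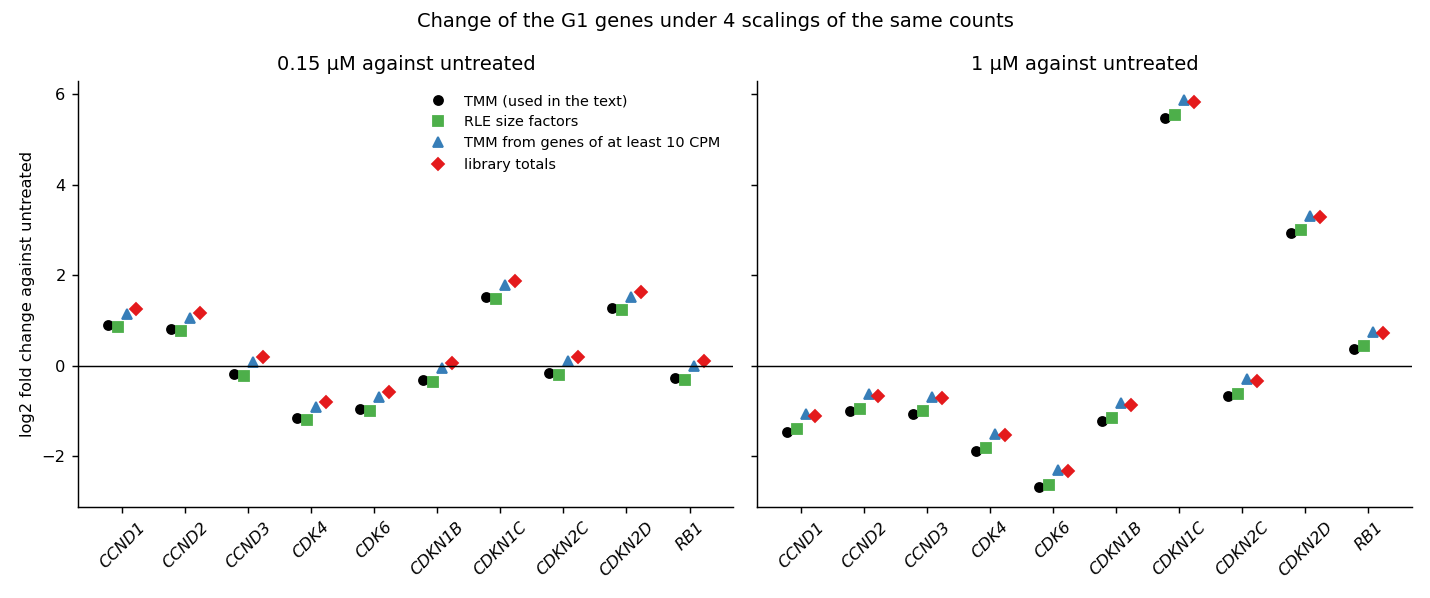
Log2 fold change against untreated cells (vertical axis) of each gene at 0.15 µM (left) and 1 µM (right) under 4 scalings of the same counts: TMM as used in the text, relative log expression (RLE) size factors, TMM from genes of at least 10 CPM, and library totals. CCND3, CDKN2C, CDKN1B and RB1 straddle 0 at 0.15 µM, from -0.17 to 0.19 in the case of CCND3 under TMM and library totals.

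Other genes of the step from G1 to S phase were read from a fixed list of 16, of which 14 passed the filter. At each dose 1 of them, CDKN1A, was higher, and 9, 10, 9 and 10 were lower from 0.15 to 1 µM. Of all genes tested, 31.9%, 37.4%, 39.4% and 38.8% were higher and 19.4%, 24.8%, 27.6% and 27.5% lower at these doses. CDKN1A encodes p21, the remaining inhibitor of the Cip/Kip family, and its mean rose from 3.90 CPM without drug to 61.6, 127, 341 and 356 CPM. Its change was 3.98 ± 0.23 at 0.15 µM and 6.51 ± 0.25 at 1 µM (adjusted p = 8.35e-11 and 1.88e-13), where CDKN1C changed by 1.53 and 5.49. The difference between these genes was not tested. Another 9 genes were lower at all 4 doses: the E-type cyclins CCNE1 and CCNE2, their kinase CDK2, the phosphatase gene CDC25A that activates it, the CDK-activating kinase genes CDK7 and CCNH, SKP2 and CKS1B, which mark p27 for breakdown, and RBL1, a relative of RB1. CDC25A fell from a mean of 187 CPM without drug to 23.4 CPM at 1 µM (-2.99 ± 0.27, adjusted p = 4.91e-08), and SKP2 changed by -2.06 (adjusted p = 2.47e-08). On library totals all 9 stayed below and CDKN1A above untreated cells in mean CPM at every dose, with CDK7 at 0.5 µM the closest to 0 (-0.18).

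From 0.25 to 0.5 µM, where CCND1, CCND2, CDK6 and CDKN1B fell, 6 of the 14 genes were higher and 0 lower, against 14.4% and 16.0% of all genes tested. CDK2, for one, changed by 0.69 ± 0.13 (adjusted p = 0.000558) at that step, from a mean of 24.5 to 39.4 CPM, and still stood below its untreated mean of 82.3 CPM. The remaining INK4 genes were all but absent. CDKN2B (p15) had 0 counts in all 15 libraries, and CDKN2A (p16) had 8 counts in 1 library at 0.25 µM and 0 in the other libraries. A count of 0 allows up to 3 counts, or 0.0751 to 0.132 CPM depending on the library, counting error only. As background, K562 cells are known to lack this locus.

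The genes whose course over the 15 libraries was most like that of each member were looked up among the 10039 genes that averaged 10 CPM or more, by Pearson's r of log2 CPM. For CDK4 they were SMARCB1 (0.996) and EIF5A (0.993), for CDKN1B MALT1 (0.995) and UTP25 (0.992), for CDKN1C TENT5B (0.994) and TUBB3 (0.991), and for CDK6 STAG2 (0.993) and QKI (0.992). CCND1 was followed most closely by LINC02772 (0.989) and RSAD2 (0.986), CCND2 by ETV6 (0.974) and ZNF121 (0.961), CCND3 by PLCXD1 and AP5B1 (0.98 each), CDKN2C by SLC4A2 (0.984) and MON1A (0.983), and RB1 by LMBRD2 (0.969) and LRBA (0.944). These values describe n = 15 libraries that share 5 dose groups, so high values are common, and CDKN2D was left out because its mean was under 10 CPM.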

How the data were processed

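Poly(A) RNA of 15 libraries was analysed, grouped and numbered by the sample labels. The deposited counts are raw fragment counts per gene. The authors trimmed paired-end reads with Trim Galore 0.6.10, aligned them to hg38 with HISAT2 2.2.1, sorted them with SAMtools 1.21 and counted genes of GENCODE release 38 with featureCounts 1.5.3, without a stated strand setting. The deposited FPKM values were computed by the authors, and in 94.45% of 22042 genes their length was the genomic span with introns, so FPKM served only as an alternative. They are counts scaled by library totals over a fixed length per gene, within 1% in all 22081 genes checked.

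Symbols were found for 99.69% of the 60649 identifiers, and positions were taken from GENCODE release 44 on hg38. Counts were filtered (filterByExpr), scaled (TMM) and fitted over all 15 libraries in edgeR 4.0.16 (R 4.3.3) with group as the only term. The quasi-likelihood F test was robust, with 10 residual degrees of freedom (prior median 8.54), common dispersion 0.0520 and Benjamini-Hochberg adjustment over 23711 genes. Errors of changes are standard errors. Ratios used 0.5 added counts and exact two-sided permutation tests (scipy 1.17.1). Between 23755510 and 32805574 counts per library limit the precision of low genes.

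Libraries with the same number at 0.25 and 0.5 µM deviated together from their group means (r = 0.476, 0.5 and 0.754 over genes). In no other pair of groups did all 3 numbers exceed 0.1, and the labels do not state a pairing. Replicates of every group differed by more than sampling noise (chi-square over its degrees of freedom at least 6.51).

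Alternatives were DESeq2 1.42.0, limma 3.58.1 on log2 FPKM with 1 or 0.1 added, other scalings and filters, a replicate block, fits of fewer groups and leaving out each library. The script was tested on simulated data. Named were all 10 genes, those of a list of 16 G1/S genes that moved one way at every dose or at 0 counts throughout, and the 2 most similar genes of each member with a mean of at least 10 CPM. CDK2 at 1 step, CDKN2A and the promoters shown were picked after the values were seen. The members and lists were chosen with earlier results of these data known. Promoter sequences are from RefSeq (GRCh38.p14), and protein sequences were not used here. From the list of K562 markers, 1 gene is not reported here.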

Additional observations from a re-analysis of the deposited data

Results flagged for a closer look

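CCND1 and CCND2 were called in opposite directions at the lowest and the highest dose, and the change between these doses was itself called. CCND1 was higher than untreated cells at 0.15 µM (0.90 ± 0.21) and lower at 1 µM (-1.45 ± 0.22), with a log2 change from 0.15 to 1 µM of -2.35 (adjusted p = 7.98e-08, edgeR), and the 3 libraries of each dose lay on opposite sides of all untreated libraries. CCND2 was higher at 0.15 µM (0.81 ± 0.25) and lower at 1 µM (-1.003 ± 0.25), with a log2 change from 0.15 to 1 µM of -1.81 (adjusted p = 1.62e-05, edgeR). The changes between the doses held in all 25 alternatives for both genes. For CCND2 against untreated cells, the call at 0.15 µM was lost without untreated replicate 3 and the call at 1 µM in 4 of 25 alternatives, library totals among them.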

How the results depend on the processing

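At 0.15 µM the changes of 4 genes turned positive under other settings. Under library totals they were 0.19 (CCND3), 0.06 (CDKN1B), 0.20 (CDKN2C) and 0.10 (RB1). Factors computed by TMM on genes above 10 CPM gave 0.090 (CCND3) and 0.10 (CDKN2C), and keeping genes with 10 or more counts in each library gave 0.0053 (CCND3) and 0.018 (CDKN2C). In limma on log2(FPKM + 1) they were 0.15 (CCND3), 0.033 (CDKN1B), 0.15 (CDKN2C) and 0.013 (RB1), and with 0.1 added in place of 1 they were 0.18 (CCND3), 0.050 (CDKN1B), 0.19 (CDKN2C) and 0.038 (RB1). At 0.25 µM CDKN1B read 0.16 on library totals, 0.048 with TMM on genes above 10 CPM, and 0.093 and 0.14 in limma with 1 and 0.1 added. RB1 at 0.25 µM read 0.38, 0.27, 0.057 and 0.24 in these settings and 0.14 with 10 or more counts in each library. The median of all genes rose with the first 2 scalings. The FPKM in the limma fits are likewise scaled by library totals. For the limma fits and the filter at 10 counts the cause was not tested.

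The number of G1 genes called from 0.15 to 0.25 µM, 2, was 4 without a filter, 1 in the fit of those libraries alone, and 0 to 3 over the leave-outs (0 without 0.15 µM replicate 1, and 1 without untreated replicates 1 or 3, 0.15 µM replicate 2, any library at 0.25 µM or 1 µM replicate 1). The ratio of CDKN1C to CDKN1B ran from 4.24 to 4.77 over the leave-outs and that of CDKN2D to CDKN2C from 2.56 to 2.93. Without untreated replicate 1, 2 or 3 both ratios had an adjusted p of 0.0549 in the exact permutation test and lost their call. The unadjusted p was then the smallest that 2 untreated libraries allow, and the adjustment also depended on the other ratios. The loss of these calls therefore says nothing about stability. The other counts of called G1 genes stayed within 1.5 times. A paired fit with a replicate block left 6, 8, 9 and 9 genes called from 0.15 to 1 µM and ended no call against untreated cells but that of CDKN1B at 0.15 µM. For 0.25 and 0.5 µM fitted alone it called 8 in place of 6. CCND1 at 0.5 µM lost its call in limma on log2(FPKM + 1) (-0.32, adjusted p = 0.0577). Alternatives were tallied for 58 single-gene fold changes, all those against untreated cells and those between doses that were called in the main fit. Of the values under alternatives, 1378 kept direction and call, 59 lost the call, 22 gained it and 25 changed sign. Calls gained between doses are not in this tally. Leaving out replicate 3 of 0.25 and 0.5 µM together, the block fit of these groups alone and lengths for strand-aware counting were chosen after seeing the data. Depth limits CDKN2D, CDKN2A and CDKN2B most.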

Other observations

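Over the 15 libraries, Pearson's r of log2 CPM between pairs of the 10 genes was -0.989 for CDKN1B and CDKN1C, -0.977 for CDK6 and CDKN1C, 0.964 for CDKN1C and CDKN2D, 0.962 for CDK6 and CDKN1B and 0.924 for CCND1 and CCND2. The libraries share 5 dose groups and their scaling, so these values describe these 15 libraries only.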
